A study of Mus musculus with 9 samples.

Results

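The miR-200 family of epithelial microRNAs (miRNAs) was followed in small RNA libraries from the mouse hippocampus. Its 5 members were chosen by name, as the rows for the 3p mature forms of miR-200a, miR-200b, miR-200c, miR-141 and miR-429 in a table of 1448 mature miRNAs. The libraries came from adult male C57BL/6J mice (strain from the labels, sex and age from the methods, with no age in weeks and no collection time in the labels), 3 in each of 3 groups. The saline group received 0.9% saline. The LPS group received a single intraperitoneal dose of 1 mg/kg lipopolysaccharide (LPS), a bacterial cell wall component that provokes inflammation, and its label also gives 0.12% saline. The LPS + GAS group received the same LPS dose and, 1 h later by the labels, 100 mg/kg gastrodin (GAS), a phenolic glucoside from an orchid. There was no group with gastrodin alone, and the methods also describe gastrodin as given together with LPS. The labels do not say that each library came from a separate mouse, so p-values measure only the spread between these libraries, which may be partly technical.

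The miR-200 family is a textbook marker of epithelial cells. Its members silence the transcription factors ZEB1 and ZEB2, which repress E-cadherin, and so help to hold cells in an epithelial state. Adult brain tissue is mostly non-epithelial, and the family is best known in the nervous system from the olfactory epithelium and bulb. Each library measures a whole piece of tissue, so a change in the number of cells of a type and a change in RNA per cell cannot be told apart.

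The members fall in 2 groups by their seed, the stretch from base 2 to base 8 that pairs with target transcripts. The mature sequences, from RefSeq on build GRCm38.p6, are shown with the seed in capitals because it decides which members can share targets. The first seed belongs to miR-200a and miR-141.
mmu-miR-200a-3p: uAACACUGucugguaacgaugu
mmu-miR-141-3p: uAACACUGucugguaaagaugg
The second seed, which differs from the first by the substitution C4U, belongs to the remaining members.
mmu-miR-200b-3p: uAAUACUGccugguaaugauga
mmu-miR-200c-3p: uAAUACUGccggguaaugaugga
mmu-miR-429-3p: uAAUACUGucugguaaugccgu
Counting from 1 at the 5′ end, miR-200a-3p and miR-141-3p differ by C17A and U22G, and miR-200b-3p and miR-200c-3p by U11G and A22G, beside the extra last base of miR-200c-3p. No other row of the table carries either seed, which were found in 2 and 3 of the 1448 rows. Each member's sequence belonged to a single row.

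The family is encoded in a pair of clusters, and each cluster holds both seeds. On GRCm38.p6, the precursors of miR-429, miR-200a and miR-200b lie within 1846 bp on the minus strand of chromosome 4, at chr4:156053905-156055750. All 3 sit in introns of Ttll10, a protein-coding gene transcribed from the same strand. They also overlap the noncoding transcript Gm13648, in its introns for miR-200a and miR-200b and in an exon for miR-429. The precursors of miR-141 and miR-200c lie within 477 bp on the minus strand of chromosome 6, at chr6:124717914-124718390, in an intron of Gm15884, which is annotated as an antisense transcript. The miR-141 precursor also overlaps an exon of Gm29008.

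The libraries held 10119758 to 11457656 miRNA reads each, and 628 of the 1448 miRNAs had at least 10 reads in at least 3 libraries and were tested. All 5 members passed this filter. Levels are given as CPM, each library's reads scaled to a common total with edgeR's TMM factors. The neuronal miRNA miR-124-3p stood at 41631 to 81557 CPM, whereas the summed miR-200 family stood at 167 to 693 CPM. miR-124-3p marks neural tissue and not the hippocampus in particular. Family reads made up 0.0165% to 0.0669% of each library, with a median of 0.0270%, or 1734 to 6853 reads.

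miR-429-3p, which has the second seed, was the most abundant member. It had 2586, 3850 and 1290 reads in saline libraries 1, 2 and 3, then 1851, 3088 and 1670 in LPS libraries and 1721, 4400 and 1090 in LPS + GAS libraries. Its highest and lowest values were therefore both in the LPS + GAS group, and the groups overlapped. Its level was 239 ± 105.5 CPM in saline (SD, n = 3), 203 ± 47.1 in LPS and 237 ± 182 in LPS + GAS.

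miR-200a-3p, its cluster neighbour with the first seed, had 872, 1334 and 423 reads in saline, 619, 1182 and 505 in LPS, and 579, 1458 and 356 in LPS + GAS. In CPM its group means were 81.3 ± 37.7, 70.2 ± 24.8 and 78.6 ± 60.5 (SD, n = 3 each). Library 2 was the highest and library 3 the lowest of each group, the pattern also seen for miR-429-3p. miR-200b-3p, the third product of the chromosome 4 cluster, had 351, 426 and 157 reads in saline, 185, 327 and 162 in LPS, and 189, 519 and 161 in LPS + GAS. Its means were 29.0 ± 11.6, 20.6 ± 5.76 and 28.5 ± 20.8 CPM. The group ranges of both miRNAs overlapped in every pair of groups.

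miR-200c-3p, from the chromosome 6 cluster, had 232, 302 and 132 reads in saline, 123, 575 and 182 in LPS, and 234, 421 and 111 in LPS + GAS. Its highest library was LPS 2, unlike the chromosome 4 members, which were highest in LPS + GAS 2. Its means were 20.7 ± 6.82, 26.1 ± 19.0 and 25.0 ± 16.2 CPM (SD, n = 3 each). miR-141-3p, its cluster neighbour, was the scarcest member, with 39, 67 and 26 reads in saline, 16, 69 and 53 in LPS, and 35, 55 and 16 in LPS + GAS. Its means were 4.09 ± 1.68, 4.22 ± 2.28 and 3.46 ± 2.02 CPM. Its counts also overlapped between all groups.

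**Figure D1:**
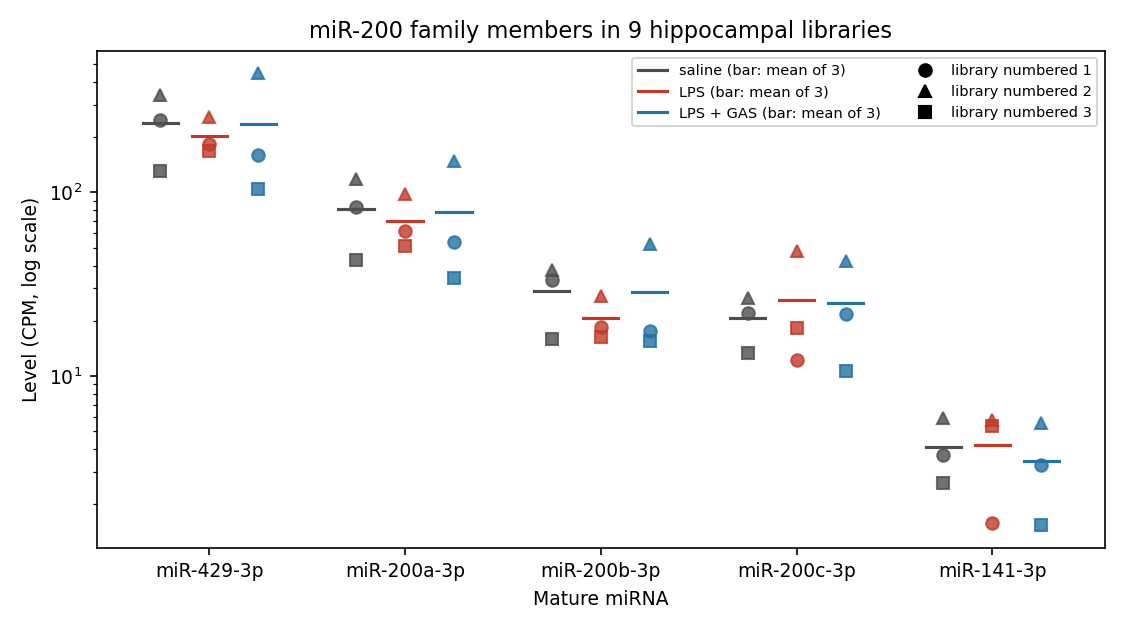
Level of each miR-200 family member (CPM, logarithmic axis) in each of the 9 libraries, coloured by group, with the library number as the point's shape and the mean of 3 libraries as a bar. The triangles of library 2 are the highest of their group for all 5 members, and the groups overlap for each.

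The order of the members by level was the same in most libraries. Reads of mature miRNAs span the whole molecule of 22 or 23 bases, so levels are not divided by length, and differences in capture between sequences were not measured. miR-429-3p exceeded miR-200a-3p in 9 of 9 libraries, by 2.61 to 3.31 times. miR-200a-3p exceeded miR-200b-3p in 9 of 9, by 2.21 to 3.61 times. The order of miR-200b-3p and miR-200c-3p was not fixed, since miR-200b-3p was the higher in only 6 of 9 and their ratio ran from 0.569 to 1.51. miR-200c-3p exceeded miR-141-3p in 9 of 9, by 3.43 to 8.33 times.

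The share of each member moved less than the total, which had a coefficient of variation of 48.0% over the 9 libraries. For the shares it was 3.22% for miR-429-3p, 4.39% for miR-200a-3p, 14.1% for miR-200b-3p, 29.2% for miR-200c-3p and 37.0% for miR-141-3p. miR-429-3p is most of the total, which itself limits how far its share can move. miR-429-3p made up 58.9% to 66.2% of the family reads of a library, miR-200a-3p 19.6% to 22.6%, miR-200b-3p 6.24% to 9.28%, miR-200c-3p 4.40% to 11.0% and miR-141-3p 0.573% to 2.06%. The first seed, summed over miR-200a-3p and miR-141-3p, carried 21.5% to 23.9% of the family reads. The ratio of miR-429-3p to miR-200a-3p had a coefficient of variation of 6.08% over the 9 libraries. The ratio of the chromosome 4 cluster to the chromosome 6 cluster was looser, at 28.3%, and ran from 7.14 in LPS 2 to 19.1 in LPS 1.

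**Figure D2:**
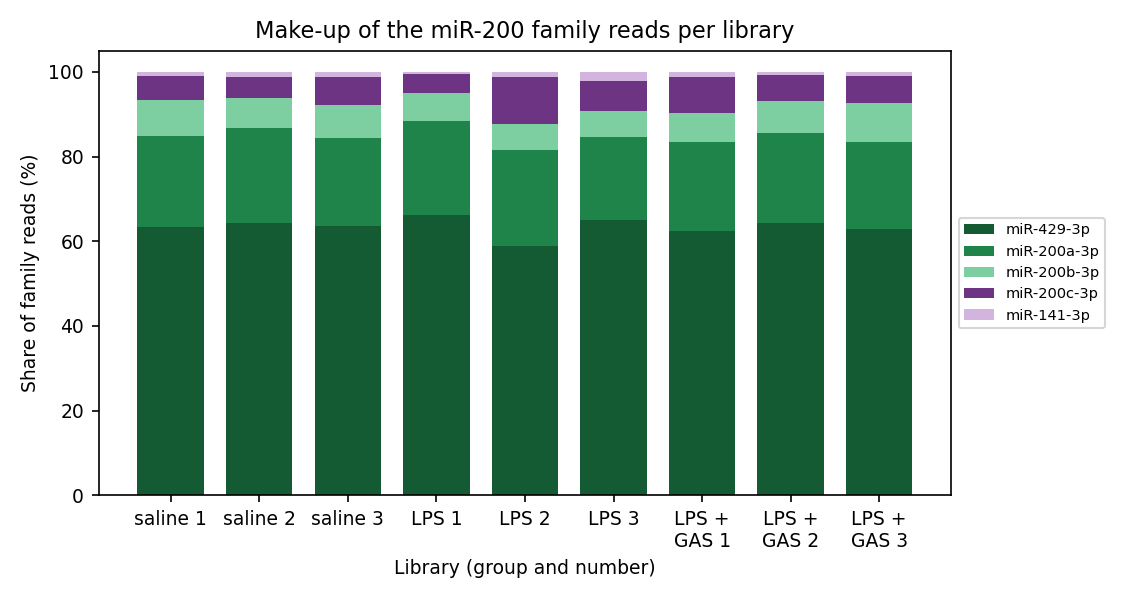
Share of the miR-200 family reads (%) taken by each member in each of the 9 libraries, greens for the chromosome 4 cluster and purples for the chromosome 6 cluster. miR-429-3p takes 58.9% to 66.2% in every library, and miR-200c-3p is widest in LPS 2, at 11.0%.

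The first comparison asked whether LPS changed the hippocampal level of the family, and no member passed the test. Against saline, the log2 fold change was -0.24 for miR-429-3p (standard error 0.51), -0.21 for miR-200a-3p (0.54), -0.49 for miR-200b-3p (0.49), 0.33 for miR-200c-3p (0.58) and 0.04 for miR-141-3p (0.54). All adjusted p were 0.992 in edgeR's quasi-likelihood test. The 95% interval of miR-200b-3p ran from -1.60 to 0.61, so these libraries could not tell a fall beyond 2-fold from a small rise. A call needed an adjusted p no higher than 0.05 together with a change of 2-fold or more, 1 on the log2 scale, in either direction. By that rule 0 of 5 members and 0.0% of the 628 miRNAs were called, with 15 of the 628 at an unadjusted p under 0.05, none of them a member. DESeq2 called 1 miRNA and limma's voom 0, none a member. The 3 values of each group did not overlap for 3.82% of the 628, and for 0 of 5 members. The members' median log2 fold change was -0.21, beside -0.04 over all 628.

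The second comparison asked what gastrodin added to LPS. Here too the members' values in both groups overlapped, and 0 of 5 were called. LPS + GAS against LPS gave log2 fold changes of 0.22 for miR-429-3p, 0.16 for miR-200a-3p, 0.47 for miR-200b-3p, -0.06 for miR-200c-3p and -0.30 for miR-141-3p, with adjusted p of 0.927 to 0.996 by edgeR. The interval for miR-200b-3p was -0.64 to 1.57. Of the 628 miRNAs 0.0% were called, 23 had an unadjusted p under 0.05, and DESeq2 and voom called 0. Groups did not overlap for 8.6% of the 628 and for 0 of 5 members. The median was 0.16 over the members and 0.0030 over all 628.

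Against saline, LPS + GAS gave log2 fold changes near 0 for the chromosome 4 members, at -0.01 for miR-429-3p, -0.05 for miR-200a-3p and -0.02 for miR-200b-3p. The chromosome 6 members had 0.27 for miR-200c-3p and -0.25 for miR-141-3p. All adjusted p were 0.998 to 0.999 by edgeR, and 0 of 5 were called, beside 0.159% of the 628 (1 miRNA, miR-21a-3p). Groups did not overlap for 7.32% of the 628 and for 0 of 5 members. The median was -0.02 over the members and -0.03 over all tested miRNAs. With the library number as a replicate block, the fold changes were -0.15 for miR-429-3p, -0.19 for miR-200a-3p, -0.15 for miR-200b-3p, 0.11 for miR-200c-3p and -0.28 for miR-141-3p, all with an adjusted p of 0.998 by edgeR. miR-141-3p was lower in LPS + GAS than in the same-numbered saline library for all 3 numbers, with 35, 55 and 16 reads against 39, 67 and 26. Counting error alone gives it a coefficient of variation of 15.1% in saline and 16.8% in LPS + GAS. How many of the 628 miRNAs show such an agreement in sign was not counted, so nothing is read from it. These comparisons share libraries, so their values are not independent. Permuting the CPM of each member between the groups (exact test, two-sided) gave p of 0.4 to 1.0 over the 15 comparisons, all 1.0 after Benjamini-Hochberg adjustment, and 0.1 is the smallest p that 3 against 3 libraries allow.

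**Figure D3:**
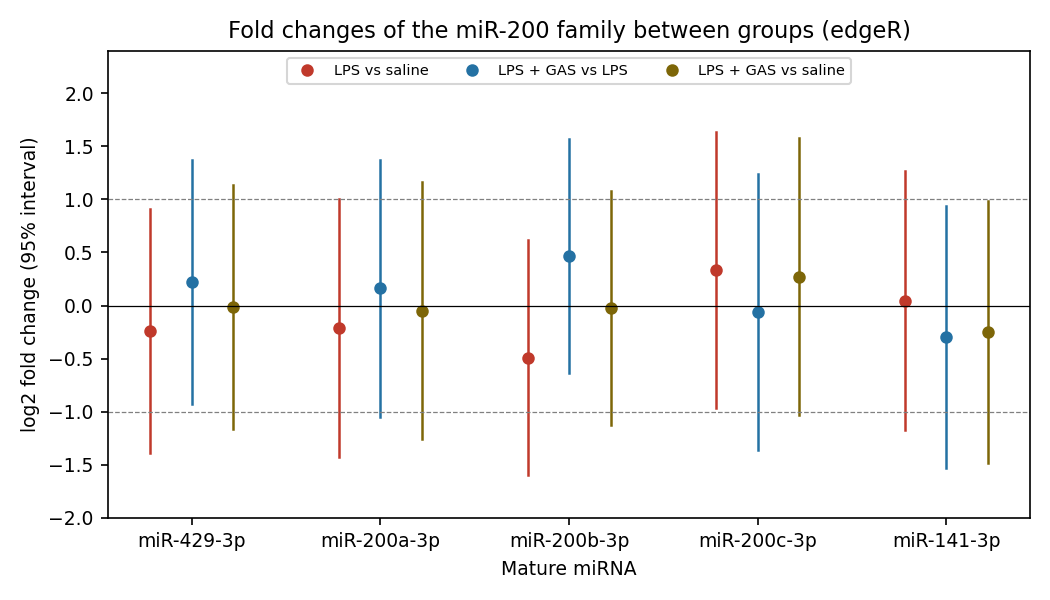
Log2 fold change of each member in the 3 comparisons, with 95% intervals from edgeR as bars and dashed lines at the 2-fold bounds. All 15 intervals contain 0, and the standard errors lie between 0.49 and 0.58.

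The spread between libraries of the same group was wide for the family. The SD within groups on the log2(CPM + 1) scale was 0.76 for miR-429-3p, 0.80 for miR-200a-3p, 0.69 for miR-200b-3p, 0.83 for miR-200c-3p and 0.65 for miR-141-3p, beside a median of 0.279 over the 628 miRNAs. This placed the members 25th to 46th from the widest of the 628. The wide spread was not particular to the family. It was 0.86 for miR-183-5p, 0.83 for miR-182-5p, 0.87 for miR-96-5p, 0.76 for miR-375-3p, 0.89 for miR-204-5p and 1.32 for miR-34b-5p. Among the other miRNAs of the lists below, miR-203-3p (0.38) and miR-449a-5p (0.21) spread less. Counting error alone would give a coefficient of variation of 1.97% to 16.8% for a member in a group, and the observed values were 23.2% to 77.0%.

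**Figure D4:**
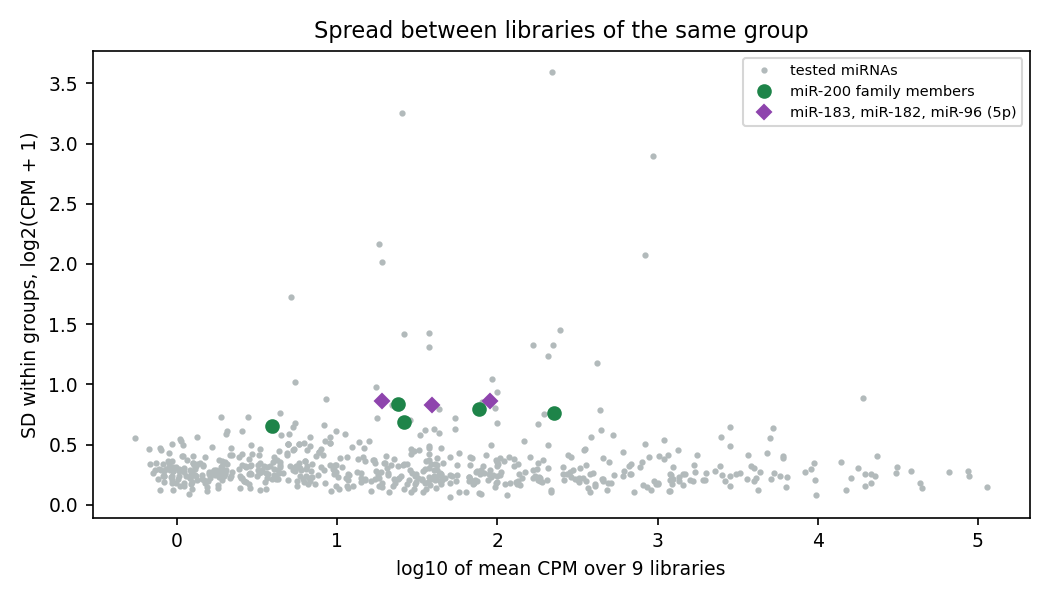
SD between libraries of the same group, on the log2(CPM + 1) scale, against the log10 of mean CPM for each of the 628 tested miRNAs. The 5 members lie between 0.65 and 0.83, above the median of 0.279. miR-183-5p, miR-182-5p and miR-96-5p, marked as diamonds, lie between 0.83 and 0.87.

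The order of the libraries within a group was much alike in the 3 groups. Library 2 was the highest of its group in 15 of 15 combinations of member and group, and library 3 was the lowest in 13 and library 1 in 2. These combinations are not independent, because the members rise and fall together and there are only 3 groups. The mean family level was 308 CPM over the 3 libraries numbered 1, 552 over those numbered 2 and 210 over those numbered 3. Over all 628 miRNAs, 33 (5.25%) were highest in library 2 of every group, and 34 and 27 were highest in library 1 and library 3. The sources used here do not say what a shared number stands for, and its part in the family's spread was not tested. Without the 3 libraries numbered 2, a choice made after the values were seen, 0 of 5 members were called in any comparison.

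Levels of the members moved together from library to library. Pearson's r of log2(CPM + 1) over the 9 libraries was 0.993 between miR-429-3p and miR-200a-3p, 0.95 between miR-200a-3p and miR-200b-3p, and 0.954 between miR-200b-3p and miR-429-3p. The chromosome 6 pair, miR-200c-3p and miR-141-3p, had r = 0.849. Pairs from different clusters ran from 0.643 for miR-200b-3p with miR-141-3p to 0.851 for miR-200a-3p with miR-200c-3p, below all 3 chromosome 4 pairs but reaching the chromosome 6 pair. Over all 196878 pairs of tested miRNAs the median r was 0.0033. These are descriptions over 9 libraries whose levels share the same totals and scaling factors.

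The other arms of the precursors were scarce, and only miR-200a-5p and miR-200b-5p passed the filter. miR-200a-5p had 18, 44 and 10 reads in saline, 15, 41 and 12 in LPS, and 13, 35 and 10 in LPS + GAS. miR-200b-5p had 16, 21 and 4 reads in saline, 20, 49 and 8 in LPS, and 23, 37 and 5 in LPS + GAS. Both were highest in library 2 and lowest in library 3 of each group, as miR-200a-3p and miR-200b-3p were. Their largest log2 fold change was 0.86 (standard error 0.76), for miR-200b-5p in LPS against saline, with an adjusted p of 0.992 by edgeR. These 2 arms share a seed with each other, shown in capitals because it is not the seed of either 3p group.
mmu-miR-200a-5p: cAUCUUACcggacagugcugga
mmu-miR-200b-5p: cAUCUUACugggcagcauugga
Pooled over the 9 libraries, the 5p arm made up 6.88% of the miR-200b reads (exact 95% binomial interval 5.95% to 7.91%), 2.63% of miR-200a (2.28% to 3.02%) and 2.34% of miR-141 (1.07% to 4.39%). It made up 0.0864% of miR-200c (0.0105% to 0.312%), and miR-429, the precursor with the most reads, had 1 read of its 5p arm in all. These intervals cover counting error only, and libraries differed by more. The miR-200b share ran from 2.48% in saline 3 to 13.0% in LPS 2, with group means of 3.85% ± 1.19 in saline, 9.16% ± 4.19 in LPS and 6.84% ± 3.92 in LPS + GAS (SD, n = 3 each). It rests on 4 to 49 reads of the 5p arm in a library. LPS 3, at 4.71%, was close to saline 2, at 4.70%, and the difference between groups in this share was not tested. The miR-200a share ran from 2.02% to 3.35%.

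By r over the 9 libraries, the miRNAs most like the family in pattern were led by the miR-183 cluster. Among 366 other tested miRNAs with at least 10 CPM on average, the 5 with the highest r to the summed family level were miR-183-5p (0.90), miR-182-5p (0.84), miR-96-5p (0.83), miR-1843a-3p (0.83) and miR-135b-5p (0.82), over 9 libraries. miR-183-5p, miR-182-5p and miR-96-5p are products of a single cluster known from sensory epithelia and neurons such as photoreceptors and hair cells. miR-183-5p stood at 80.3, 108 and 65.6 CPM in saline, 47.6, 155 and 63.8 in LPS, and 63.2, 190.0 and 39.2 in LPS + GAS. It was highest in library 2 of every group, as the family was. Spearman's rho of these 5 with the family was 0.70 to 0.85. Without saline 2 and LPS + GAS 2, the libraries farthest from the median family level, r was 0.82 for miR-183-5p and 0.55 to 0.68 for the other four. None of the 5 was called in any comparison. On deviations from the group means, r was 0.90 for miR-183-5p, 0.89 for miR-1843a-3p and 0.86 for miR-182-5p. It was 0.83 for miR-96-5p and miR-135b-5p. The neural miRNA miR-128-3p, outside these 5 with r = 0.79 over the 9 libraries, had 0.89 on the deviations. miR-1843a-3p was nearly flat, at 106 to 125 CPM over the 9 libraries, so its likeness is one of order and not of size.

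The list of 6 other epithelial and sensory miRNAs was mixed. Its summed level had r = 0.47 to the family, and 0.55 without saline 2 and LPS + GAS 2. The 3 miRNAs of the miR-183 cluster belong to it and had the values above. miR-203-3p, a miRNA of stratified epithelium, had r = -0.26 to the family (-0.73 without those libraries) and stood at 11.9 to 34.2 CPM. miR-375-3p, known from endocrine and secretory epithelium, had r = -0.19 (0.31 without them) and stood at 79.7 to 448 CPM. miR-205-5p, a marker of basal epithelial cells, had 2 to 8 reads and was not tested. Of the 6 miRNAs, 5 were tested and 0 were called in each comparison.

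The choroid plexus and ependyma are the epithelia and epithelium-like linings of the ventricles next to the hippocampus. The list of 12 choroid plexus miRNAs summed to 9307 to 29119 CPM in saline, 9290 to 22120 in LPS and 11894 to 55952 in LPS + GAS. Most of each sum was miR-204-5p, at 8994 to 26893, 9098 to 20913 and 11645 to 51934 CPM. The summed level of the list had r = -0.36 to the family over the 9 libraries, and -0.12 without saline 2 and LPS + GAS 2. The list of 6 ependymal miRNAs, from the miR-34b/c and miR-449 clusters of multiciliated cells, summed to 301 to 1609, 418 to 964 and 443 to 3291 CPM, with r = -0.48, or -0.18 without the same libraries. Most of each sum was miR-34b and miR-34c. The miR-449 members did not follow them, as miR-449a-5p stood at 31.2 to 52.2 CPM and miR-449c-5p had 0 to 3 reads. In LPS + GAS 1 miR-449a-5p was the lowest of its group, at 47.7 CPM. LPS + GAS 1 was the highest library for both lists and not for the family, which stood there at 257 CPM. In LPS + GAS 2, where the family was highest, the choroid plexus list stood at 11894 CPM, the lowest of its group. No miRNA of either list was at 0 in all libraries.

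Between groups, the 10 tested choroid plexus miRNAs had a median log2 fold change of 1.27 in LPS + GAS against LPS and 0.86 against saline, and the 5 tested ependymal miRNAs had 1.54 and 1.14. Among the ependymal miRNAs, miR-449a-5p had only 0.32 and 0.04. The 5 red blood cell miRNAs had medians of 1.04 and 0.61. Of these, miR-486a-5p and miR-486b-5p had the same reads in every library, so 1 measurement counts doubly in the list. In LPS against saline the medians were below 0, at -0.54 for the choroid plexus, -0.38 for the ependyma and -0.36 for the red blood cell miRNAs. None of these was called in any comparison. In LPS + GAS against LPS the standard errors ran from 0.53 to 1.38 for choroid plexus miRNAs and from 0.20 to 0.86 for ependymal ones. LPS + GAS 2 lay within the range of the LPS libraries for both lists, at 11894 and 443 CPM. The miRNAs of a list were measured in the same libraries and are not independent. The red blood cell list had r = 0.09 to the family and the neural list 0.20, and both signs turned without saline 2 and LPS + GAS 2, to -0.38 and -0.27. The neural sum hides members that went opposite ways. Over the 9 libraries r was 0.79 for miR-128-3p, 0.53 for miR-9-5p and 0.07 for miR-219a-5p. It was -0.0044 for miR-124-3p, the most abundant of that list, and -0.78 for miR-138-5p. The part of these cell types in the family's values was not tested.

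**Figure D5:**
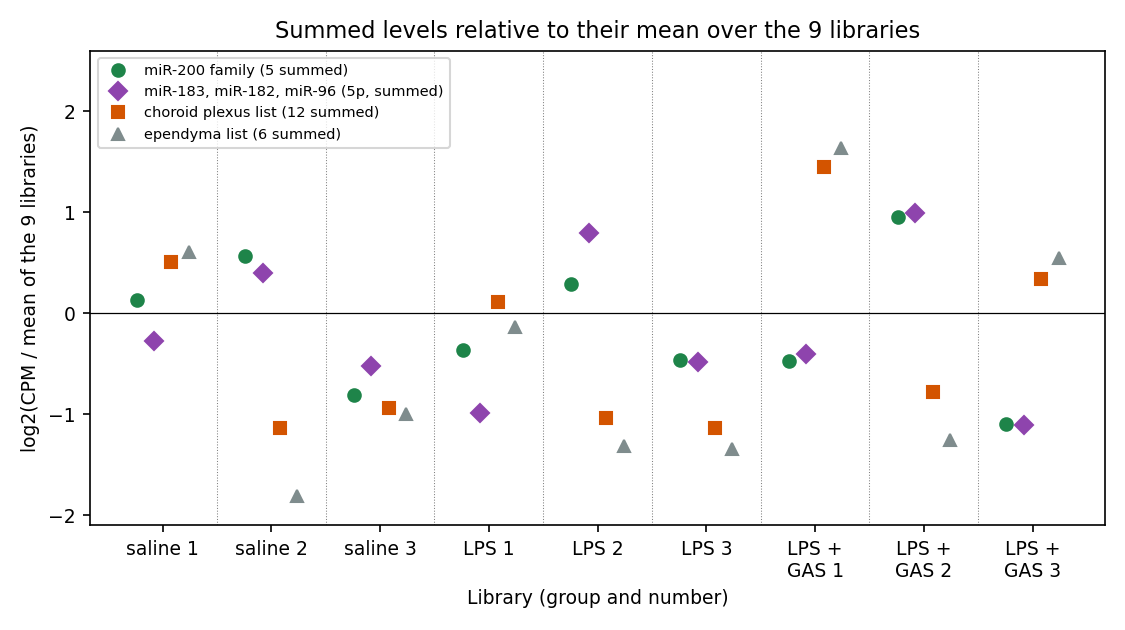
Summed level in each library relative to its own mean over the 9 libraries (log2 scale), for the miR-200 family, the miR-183 cluster, the choroid plexus list and the ependyma list. The family and the miR-183 cluster are both highest in LPS + GAS 2, whereas both ventricle lists are highest in LPS + GAS 1.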

How the data were processed

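The authors deposited raw read counts per mature miRNA for 9 BGISEQ-500 small RNA libraries, with no normalization. The submitters' processing notes name the build GRCm38.p6. No aligner is named in the sources used here. A further whole-number count per library (exp), deposited by the authors and at or below the read count, was an alternative. The authors' own fold changes and p-values were not used. Libraries were grouped by their titles.

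Counts were fitted in R 4.3.3 with edgeR 4.0.16 (glmQLFit and glmQLFTest, TMM factors 0.914 to 1.19, a mean per group over the 9 libraries, at least 10 reads in at least 3 libraries), with Benjamini-Hochberg adjustment over 628 miRNAs. The alternatives were DESeq2 1.42.0 (size factors and Wald test), voom from limma 3.58.1, no filter, at least 50 reads, the exp values, the 2 groups alone, a replicate block and each library left out in turn. Leaving out the libraries numbered 2 together was added after the data had been seen. On counts simulated for LPS vs saline with a log2 fold change of 2, edgeR recovered 189 of 196 changed miRNAs among 621, with 4 false calls. That check shows only that the code runs as meant. It changed many miRNAs at once and pooled miRNAs of every spread, so its recovery does not apply to the members, whose spread was wide.

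The members and lists were chosen with earlier results of these data known. The named miRNAs are the members, their other arms, the lists (other epithelial and sensory, choroid plexus, ependyma, red blood cell, neural), and the 5 others with the highest Pearson correlation to the summed family. Deviations from the group means correlated at 0.296 to 0.370 between same-numbered libraries of saline and LPS + GAS (3 pairs). On these correlations alone, the block by library number was fitted as an alternative. It was fitted over all 9 libraries, so the LPS libraries also enter its estimates. The fold changes, intervals and permutation tests reported first are unpaired. In the comparisons with LPS the correlations ran from -0.284 to 0.317 (vs saline) and from -0.274 to 0.05 (vs LPS + GAS). With 3 pairs each, these mixed signs cannot settle whether the numbers pair the libraries there. All 10 mature sequences were matched by name to RefSeq.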

Additional observations from a re-analysis of the deposited data

How the results depend on the processing

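No member was called under any alternative, and adjusted p stayed between 0.879 and 1.00. Of 270 alternative fold changes of the members, 213 kept their sign and 57 changed it, so the direction of these small differences was not settled. The cause was not tested.

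In LPS vs saline, the sign changed for miR-141-3p with voom (-0.075) and for miR-200c-3p without the 3 libraries numbered 2 (-0.16). In LPS + GAS vs LPS, it changed with voom (miR-200a-3p -0.061, miR-429-3p -0.030), with the replicate block (-0.046 and -0.023) and without the libraries numbered 2 (miR-200a-3p -0.36, miR-429-3p -0.42, miR-200b-3p -0.081, miR-200c-3p 0.073). In LPS + GAS vs saline, miR-200a-3p gave 0.017 with DESeq2's size factors or Wald test and 0.012 with no filter. There miR-200b-3p gave 0.041 with size factors, 0.042 with Wald, 0.035 with no filter, 0.017 with 50 reads and 0.023 with exp values. miR-429-3p gave 0.052 with size factors or Wald, 0.048 with no filter, 0.027 with 50 reads and 0.029 with exp values. miR-200c-3p gave -0.091 without the libraries numbered 2. The replicate block narrowed the members' standard errors from 0.49 to 0.58 to 0.26 to 0.48 and changed no call.

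Leaving out each library in turn moved the log2 fold changes over these ranges. In LPS vs saline they were -0.52 to 0.21 for miR-200a-3p, -0.79 to -0.20 for miR-200b-3p, -0.53 to 0.16 for miR-429-3p, -0.41 to 0.67 for miR-200c-3p and -0.21 to 0.47 for miR-141-3p. In LPS + GAS vs LPS they were -0.67 to 0.55 for miR-200a-3p, -0.32 to 0.79 for miR-200b-3p, -0.61 to 0.61 for miR-429-3p, -0.68 to 0.74 for miR-200c-3p and -0.81 to 0.074 for miR-141-3p. In LPS + GAS vs saline they were -0.88 to 0.39 for miR-200a-3p, -0.81 to 0.35 for miR-200b-3p, -0.85 to 0.41 for miR-429-3p, -0.35 to 0.71 for miR-200c-3p and -0.77 to 0.18 for miR-141-3p. Removing LPS 2 turned 7 of the 15 values, saline 2 and LPS + GAS 3 turned 6 each, LPS + GAS 1 and LPS + GAS 2 turned 4 each, saline 1 turned 3, LPS 3 turned 2, saline 3 turned 1 and LPS 1 turned 0.

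The count of called miRNAs in LPS vs saline was 2 with no filter (miR-21a-3p and miR-532-3p), 1 with DESeq2 (miR-21a-3p) and 1 without the libraries numbered 2 (miR-532-5p), against 0. In LPS + GAS vs LPS it was 1 without the libraries numbered 2 (miR-532-5p), against 0, and in LPS + GAS vs saline it was 0 there, against 1. It ran from 0 to 1 in LPS vs saline (1 without LPS 2 or LPS + GAS 3) and in LPS + GAS vs LPS (1 without LPS 2) as each library was left out. With 3 libraries a group and standard errors near 0.5, a change of 2-fold or more in a member could be missed. The interval of miR-200c-3p in LPS vs saline reached 1.64 on the log2 scale. In LPS + GAS vs LPS, miR-204-5p was not called at 1.14 (standard error 0.60, adjusted p 0.903 by edgeR). How large a change in a member would be called was not worked out. The depth limits miR-141-3p (16 to 69 reads) and the 5p arms most.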

Other observations

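The miRNAs least like the family in pattern, picked after their values were seen, ran against it. Pearson's r to the summed family level was -0.97 for miR-374b-5p, -0.95 for miR-130a-3p, -0.88 for miR-874-3p, -0.86 for miR-7a-2-3p and -0.82 for miR-344d-3p over 9 libraries. miR-374b-5p had r = -0.98 without saline 2 and LPS + GAS 2. They were the extremes of 366 candidates, and the same totals and scaling factors enter both sides.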
